A study of Caenorhabditis elegans with 16 samples.

Results

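The genes described here are 10 regulators of developmental timing in the nematode Caenorhabditis elegans: lin-14, lin-28, lin-46, hbl-1, lin-41, lin-29, lep-2, lin-42, blmp-1 and nhr-25. They were chosen by symbol, and all 10 were found among the 46911 genes of the count files. All 10 were also among the 14058 genes tested, which had at least 1 CPM (counts per 1e6 gene counts) in at least 4 of the 16 libraries. Polyadenylated RNA was sequenced from starved first-stage (L1) larvae, collected 12 h after hatching in a buffer without food at 20 °C, with 10000 whole larvae per library and 4 libraries per genotype. The triple mutant carried daf-2(e1370), irld-39(duk1) and irld-52(duk17), and its 4 libraries came from separately made lines, 2 from LRB457 and 2 from LRB458. They are numbered replicates 1 and 3 for LRB457 and replicates 1 and 4 for LRB458, so number 1 occurs in both lines and number 2 is absent. The daf-2 mutant (strain CB1370) carried daf-2(e1370), a reduction-of-function allele of the insulin/IGF receptor gene. The irld mutant (LRB444) carried irld-39(duk1) and irld-52(duk17), alleles of genes for proteins related to the receptor's ligand-binding domain. Wild type was N2. Every larva of every group was starved, so the comparisons are between genotypes within starvation and not between fed and starved larvae.

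In C. elegans, the heterochronic genes set which larval stage each cell lineage, above all the epidermal seam cells, behaves as. Early-stage regulators (LIN-14, LIN-28, HBL-1, LIN-41) are switched off in sequence by the microRNAs lin-4 and the let-7 family, which act on the 3′ untranslated regions (UTRs) of their mRNAs, and LIN-29 executes the final switch to the adult epidermis. A further set of regulators ties these decisions to the molting cycle, among them the period homologue LIN-42, the Blimp-1 homologue BLMP-1 and the nuclear receptor NHR-25. An L1 larva that hatches without food arrests before postembryonic development starts, and insulin/IGF signalling through DAF-2 is among the pathways that control this arrest.

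The 16 libraries held between 14033534 and 24903552 counts assigned to genes, of which the 10 timing genes took between 0.0596% and 0.101%. Transcripts of daf-2 were counted in every library, at 373 to 455 CPM in the triple mutant and 426 to 480 CPM in the daf-2 mutant, against 383 to 569 CPM in the irld mutant and 242 to 558 CPM in wild type. The genes irld-39 and irld-52 each had between 1 and 12 counts per library, so mRNA levels were not a check on the genotype labels. Markers of body wall muscle, neurons, intestine, epidermis and pharynx were detected in all groups, as whole larvae should show, while the sperm gene msp-3 had 2 counts in the daf-2 mutant and 0 in each other group. The 3 intestine markers summed to 45.6 to 54.5 CPM in the triple mutant and 46.1 to 48.5 CPM in daf-2 mutants, wholly below the 60.4 to 69.0 CPM of the irld mutant and the 57.9 to 68.0 CPM of wild type. Of these markers the esterase gene ges-1 was called lower in both groups with daf-2(e1370), with log2 fold changes of −0.85 and −0.84 relative to wild type and −0.88 and −0.86 relative to the irld mutant. The transcription factor gene elt-7 was not called in these 4 comparisons, and elt-2 was called only in the triple mutant against wild type, where it was higher (0.49, edgeR adjusted p = 0.0424, and 0.41, edgeR adjusted p = 0.0929, without wild-type replicate 3). This sum moved with the same groups as blmp-1 and hbl-1 below, and its part in their results was not tested. In whole larvae, fewer cells of a type and less RNA per cell cannot be told apart.

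One wild-type library stood furthest apart, and it touches every comparison with wild type below. Relative to the mean of the other 3 wild-type libraries, replicate 3 had a median log2 difference of −0.54 over the 10% of tested genes with the longest exons (above 3190 bases) and of 0.53 over the 10% with the shortest exons (below 581 bases). Measured likewise, the longest genes were at 0.37 in replicate 1, −0.23 in replicate 2 and 0.41 in replicate 4, and the shortest at −0.26, 0.03 and −0.29. The longest genes were thus low in replicate 2 as well, and leaving out replicate 3 does not remove that difference. Among the timing genes, lin-41, hbl-1, lin-42, lin-14 and blmp-1 have exon lengths above that upper limit. Those of the others run from 1365 bases (lin-46) to 2572 bases (nhr-25). In replicate 3, 8 of the 10 timing genes were lower than the mean of the other wild-type libraries, with log2 differences of −1.38 for hbl-1, −1.14 for lin-41, −1.05 for blmp-1, −0.97 for nhr-25 and −0.82 for lin-14. The long gene lin-42 was higher there, by 1.21, as was lin-46, by 0.11. Its part in the results was not tested as a cause. Values of most comparisons with wild type are therefore also given without this library, and those of the called genes also with an offset that levels each library's dependence on exon length.

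**Figure D1:**
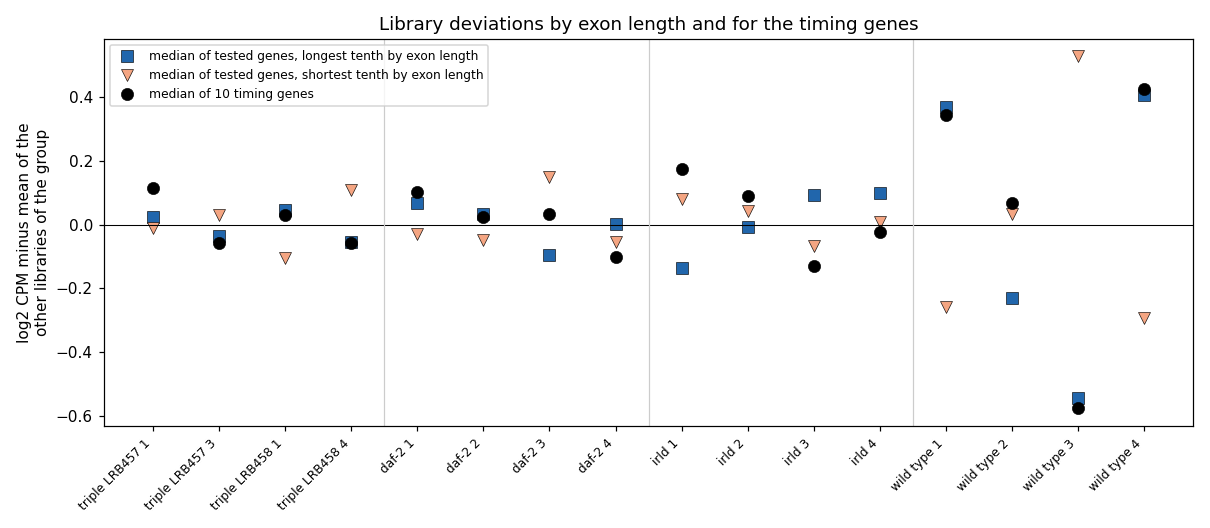
Each library's log2 CPM minus the mean of the other libraries of its group, as the median over the longest and the shortest 10% of tested genes by exon length and over the 10 timing genes (vertical axis, log2 units; libraries along the horizontal axis, triple mutant at left and wild type at right). Wild-type replicate 3 has the lowest median of the timing genes, at −0.58, and wild-type replicates 1 and 4 the highest, at 0.35 and 0.42.

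The annotation (Ensembl 115, build WBcel235) places lin-14, hbl-1 and nhr-25 on chromosome X, lin-28, lin-41 and blmp-1 on chromosome I, lin-29 and lin-42 on chromosome II, lep-2 on chromosome IV and lin-46 on chromosome V. Counts are for whole genes, so they cover all annotated exons and UTRs and do not separate isoforms, of which lin-42 has 7, lin-41 has 4 and lin-46 has 1. Long 3′ UTRs, the part of the mRNA that the microRNAs of this pathway act on, are a shared feature of most of these genes. The longest annotated 3′ UTR measured 1604 bases in lin-14, 1394 in hbl-1, 1165 in lin-41, 939 in lin-42, 927 in blmp-1, 751 in nhr-25, 697 in lin-29 and 531 in lin-28. Each of these 8 is longer than that of at least 92.0% of the 16805 coding genes with an annotated 3′ UTR. The exceptions are lin-46, with 153 bases (longer than 56.3% of genes), and lep-2, with 71 bases (longer than 24.3%). Exons of lin-28 share 16 bases with the coding gene F02E9.1 on the other strand, and those of lin-29 share 2 bases with hmg-12. Exons of lin-14 contain 2 small nucleolar RNA genes on the same strand (108 and 99 bases). The strand setting of the counting is not given in the sources used here, so reads from these stretches cannot be assigned with certainty, although each stretch covers at most 2.95% of the timing gene's exon length.

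Per kilobase of exon, lin-28, lin-14 and lin-41, regulators of earlier larval fates, were the most abundant of the 10 mRNAs, and the gene that executes the adult switch was among the scarcest. Over all 16 libraries lin-28, the RNA-binding protein that blocks let-7 maturation, averaged 124 CPM per kilobase and lay above 94.7% of tested genes. Next came lin-14, the DNA-binding protein that specifies L1 fates, at 95.5 CPM per kilobase, and lin-41, a TRIM-NHL RNA-binding protein that represses lin-29 mRNA, at 44.9. A middle group held lep-2, a Makorin-family gene that helps to turn LIN-28 off, at 17.3, hbl-1, a Hunchback-like zinc finger factor, at 16.02, and nhr-25, at 12.4 CPM per kilobase. Lower still were blmp-1 at 6.59 and lin-46, a gephyrin-related protein that acts against HBL-1, at 5.70 CPM per kilobase. The scarcest were lin-29, at 1.36, and lin-42, at 0.431 CPM per kilobase, which was above only 0.847% of tested genes. The ratio between the highest and the lowest was 289. Within a library this order held for lin-28 above lin-14, lin-14 above lin-41 and lin-41 above lep-2 in 16 of 16 libraries. The neighbours lep-2 and hbl-1 kept it in only 10 of 16 libraries, as did blmp-1 and lin-46, so the members of these pairs were not separated by their spread. The per-kilobase value divides by all annotated exons of a gene and is lowered where a long isoform is not used.

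**Figure D2:**
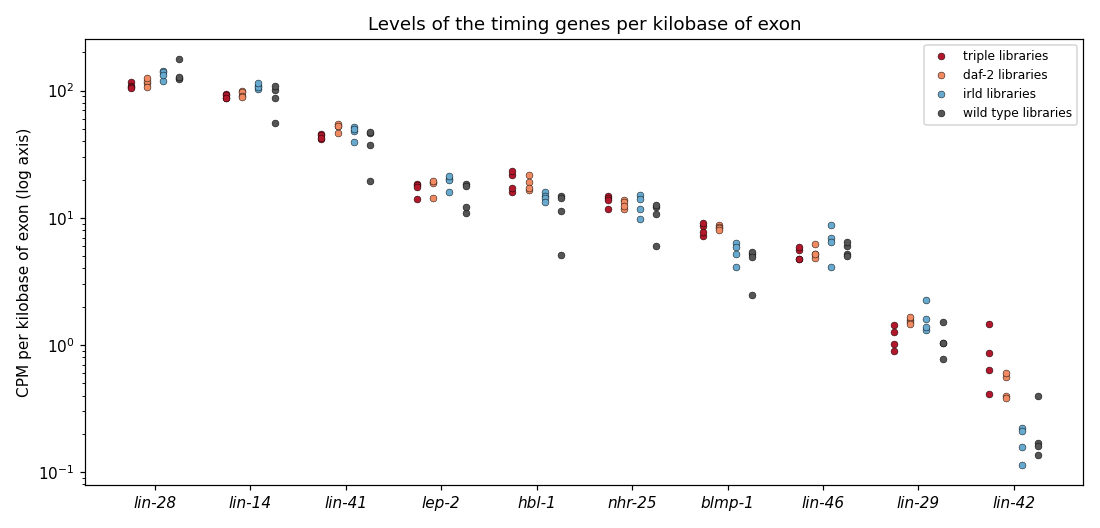
Level of each timing gene in CPM per kilobase of exon (vertical axis, logarithmic), with 1 point per library, ordered by mean level; within a gene the groups run from the triple mutant through the daf-2 and irld mutants to wild type. Libraries of lin-28 lie highest, and those of lin-42 span the widest relative range.

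Of the 4 comparisons of a group with daf-2(e1370) against one without it, blmp-1 was higher in 4, lin-42 in 3 and hbl-1 in 1, while lin-28 was lower in 1, the triple mutant against wild type. A gene was called changed at an edgeR quasi-likelihood adjusted p under 0.05 (Benjamini-Hochberg over all tested genes). In the triple mutant against wild type 4 of the 10 timing genes were called, 3 higher and 1 lower, where 20.4% of all tested genes were called, 10.1% higher and 10.4% lower. In the daf-2 mutant against wild type 1 of 10 was called, and it was higher, where 15.7% of all tested genes were called and 7.97% were higher. In the triple mutant against the irld mutant 2 of 10 were called, both higher (18.4% of all tested genes called, 9.8% higher), and in the daf-2 mutant against the irld mutant likewise 2 of 10, both higher (14.8% called, 7.89% higher). The gene lin-42 passed the filter on low counts only through the groups with daf-2(e1370). Without it the counts were 3, 1, 1 and 1 of 9 genes, and 1 of 9 is near the background shares. The comparisons that share a group of control libraries are not independent of each other.

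**Figure D3:**
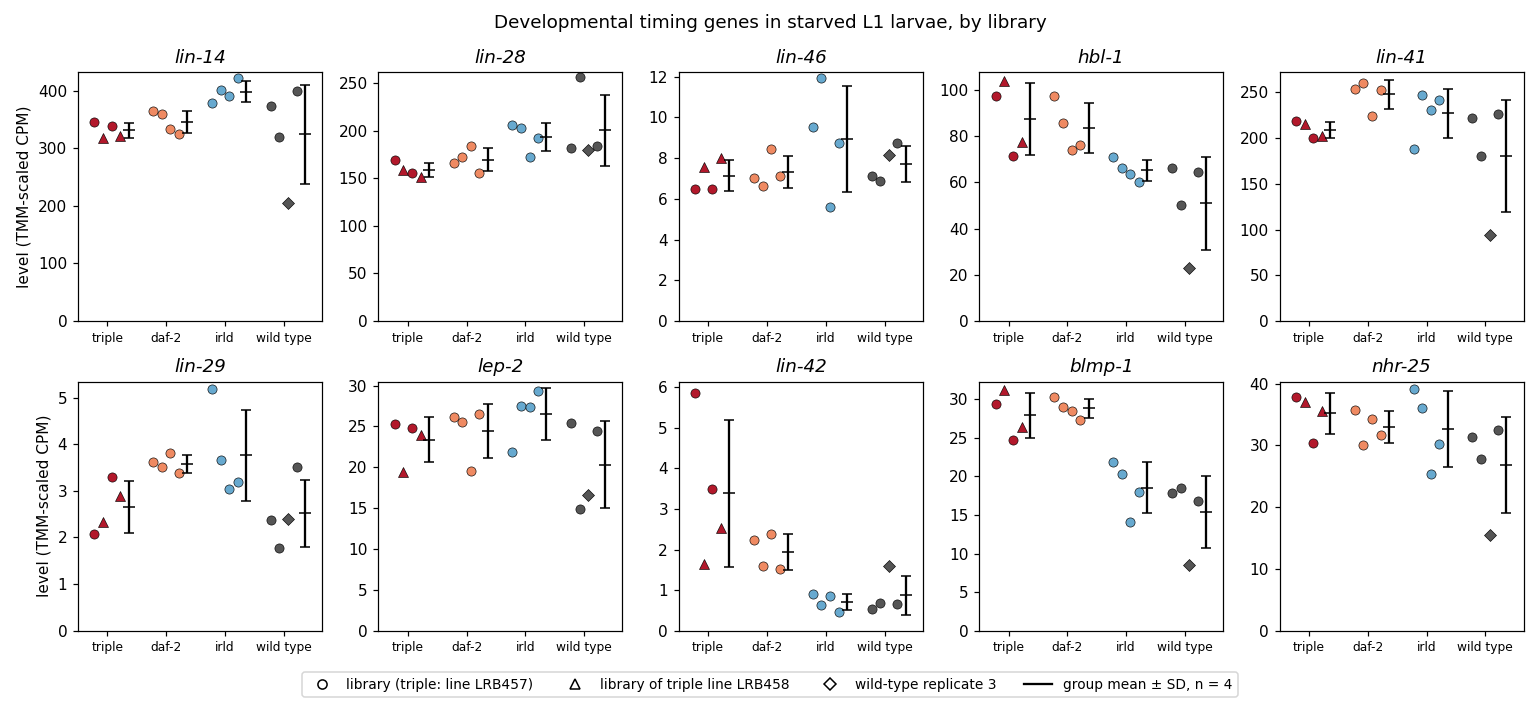
TMM-scaled CPM of each timing gene (vertical axes, starting at 0) in every library of the triple, daf-2 and irld mutants and wild type; bars give the group mean ± SD (n = 4), triangles mark line LRB458 and diamonds wild-type replicate 3. All triple and daf-2 libraries of blmp-1 and hbl-1 lie above all irld and wild-type libraries, and the share of all tested genes that do so was not determined.

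The gene blmp-1 encodes the homologue of the transcriptional repressor Blimp-1, which in C. elegans opens chromatin of cyclically expressed epidermal genes and is itself removed by the DRE-1 ubiquitin ligase (WBcel235 position I:10409302-10414773, plus strand). Its levels were 29.4 and 24.7 CPM in the LRB457 libraries and 31.2 and 26.4 CPM in the LRB458 libraries of the triple mutant, and 30.4, 29.0, 28.5 and 27.4 CPM in the daf-2 mutant. In the irld mutant they were 21.9, 20.3, 14.1 and 17.9 CPM, and in wild type 17.8, 18.5, 8.50 and 16.8 CPM. All 8 libraries with daf-2(e1370) were above all 8 without it, while the triple and daf-2 mutants overlapped each other, as did the irld mutant and wild type. The share of all tested genes split in this way was not determined, so the split is a description. Against wild type the log2 fold change was 0.86 ± 0.19 (SE) in the triple mutant (edgeR adjusted p = 0.00476) and 0.90 ± 0.19 in the daf-2 mutant (edgeR adjusted p = 0.00395). Without wild-type replicate 3 these values were 0.66 and 0.70, with edgeR adjusted p = 0.00257 and 0.00176, and with the exon-length offset 0.75 and 0.77. The log2 fold change over the irld mutant was 0.59 ± 0.19 in the triple mutant (edgeR adjusted p = 0.0380) and 0.63 ± 0.19 in the daf-2 mutant (edgeR adjusted p = 0.0324). These last calls were each lost when single libraries were left out: for the triple mutant without LRB457 replicate 1, LRB458 replicate 1 or irld replicates 2, 3 or 4 (log2 fold changes of 0.50 to 0.64, adjusted p up to 0.0898), and for the daf-2 mutant without any 1 of its own replicates or without irld replicates 3 or 4 (0.52 to 0.65, adjusted p up to 0.0931).

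The gene lin-42 (II:1233236-1252359, minus strand) encodes the PERIOD homologue of C. elegans, which represses transcription of timing microRNA genes and times the molts. It was counted at 5.87 and 3.48 CPM in the LRB457 libraries and 1.65 and 2.54 CPM in the LRB458 libraries of the triple mutant, and at 2.24, 1.60, 2.39 and 1.53 CPM in the daf-2 mutant. The irld libraries had 0.895, 0.635, 0.849 and 0.456 CPM, and the wild-type libraries 0.544, 0.686, 1.59 and 0.645 CPM. Both LRB457 libraries were above all other libraries, and only wild-type replicate 3 reached into the range of the daf-2 mutant. These are low counts, 252 in all in the triple mutant and 128 in the daf-2 mutant against 45 in the irld mutant and 51 in wild type. Because lin-42 passed the filter on low counts through the groups with daf-2(e1370), its calls are a description. The log2 fold change of the triple mutant was 1.94 ± 0.41 (SE) against wild type (edgeR adjusted p = 0.00334) and 2.24 ± 0.41 against the irld mutant (edgeR adjusted p = 0.00133). Without the LRB457 libraries the value against wild type was 1.27 (edgeR adjusted p = 0.0676), which was no longer called, without wild-type replicate 3 it was 2.41, and with the exon-length offset 1.71 (edgeR adjusted p = 0.0138). The daf-2 mutant exceeded the irld mutant by 1.44 ± 0.42 on the log2 scale (edgeR adjusted p = 0.0287). Leaving out daf-2 replicates 1 or 3 or irld replicates 2 or 4 ended this call (1.28 to 1.40, adjusted p up to 0.0908). Against wild type its log2 fold change of 1.15 ± 0.41 did not pass (edgeR adjusted p = 0.0707), and it did pass without wild-type replicate 3 (1.62, edgeR adjusted p = 0.0175) and without LRB457 replicate 1 (1.15, edgeR adjusted p = 0.0473), while with the exon-length offset it was 0.89 (edgeR adjusted p = 0.209).

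Of 3 epidermis markers examined, the cuticle collagen gene dpy-7 was called in the same 3 comparisons as lin-42, and the transcription factor genes elt-3 and lin-26 in none of them. The gene dpy-7 had log2 fold changes of 2.12 ± 0.48 in the triple mutant against wild type and 3.26 ± 0.52 against the irld mutant, and of 2.05 ± 0.52 in the daf-2 mutant against the irld mutant (edgeR adjusted p = 0.00605, 0.000477 and 0.0142). In daf-2 mutants against wild type it was at 0.91 ± 0.48 (edgeR adjusted p = 0.221), and without wild-type replicate 3 its values relative to wild type were 2.26 in the triple mutant (edgeR adjusted p = 0.0122) and 1.02 in daf-2 mutants (edgeR adjusted p = 0.242). For elt-3 the log2 fold changes of the triple mutant were −0.39 against wild type and −0.42 against the irld mutant, and for lin-26 they were 0.22 and 0.07. The summed level of the epidermis markers did not separate the groups: it averaged 105 ± 8.91 CPM in the triple mutant, 103 ± 14.5 in the daf-2 mutant, 105 ± 14.4 in the irld mutant and 99.3 ± 19.6 in wild type (SD, n = 4 each). The part of epidermal RNA content in the lin-42 result was not tested.

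The gene hbl-1 (X:5822142-5827755, plus strand) encodes the Hunchback-like factor that sustains second-stage fates and is a target of let-7 family microRNAs. It had 97.4 and 71.2 CPM in the LRB457 libraries and 104 and 77.3 CPM in the LRB458 libraries of the triple mutant, and 97.6, 85.9, 74.01 and 76.4 CPM in the daf-2 mutant. It had 70.9, 66.3, 63.6 and 60.0 CPM in the irld mutant and 66.2, 50.2, 22.9 and 64.5 CPM in wild type. As for blmp-1, all 8 libraries with daf-2(e1370) were above all 8 without it, though the gap between the nearest ones, 71.2 CPM in the triple mutant against 70.9 CPM in the irld mutant, was small. Here too this is a description, without the share of all tested genes split in the same way. The log2 fold change was 0.78 ± 0.24 (SE) in the triple mutant against wild type (edgeR adjusted p = 0.0299) and 0.71 ± 0.24 in the daf-2 mutant, which did not pass (edgeR adjusted p = 0.0539). Without wild-type replicate 3, where hbl-1 was lowest, both passed with smaller folds, at 0.54 (edgeR adjusted p = 0.0167) and 0.47 (edgeR adjusted p = 0.0381), and with the exon-length offset they were 0.66 and 0.57. The call in the triple mutant was lost without LRB457 replicate 1, LRB458 replicate 1 or wild-type replicate 2 (0.70 to 0.77, adjusted p up to 0.0733), and that of the daf-2 mutant was gained without wild-type replicates 1 or 4 (0.86 and 0.85). In every group hbl-1 was highest in replicate 1, a number that both LRB457 and LRB458 hold in the triple mutant. Over the irld mutant neither the triple mutant (0.42 ± 0.24, edgeR adjusted p = 0.246) nor the daf-2 mutant (0.36 ± 0.24, edgeR adjusted p = 0.362) passed the test. The triple mutant did so without wild-type replicate 3 (0.42, edgeR adjusted p = 0.0295). With only the groups compared in the fit both passed, the triple mutant at 0.42 (edgeR adjusted p = 0.0315) and the daf-2 mutant at 0.36 (edgeR adjusted p = 0.0357).

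The gene lin-28 (I:8407630-8410804, minus strand) encodes the RNA-binding protein named above. It had 169 and 156 CPM in the LRB457 libraries and 159 and 152 CPM in the LRB458 libraries of the triple mutant, and 166, 172, 184 and 155 CPM in the daf-2 mutant. The irld mutant had 206, 203, 172 and 192 CPM, and wild type 182, 257, 179 and 184 CPM. The triple mutant lay below all irld and wild-type libraries, and wild-type replicate 2 stood above all others. The triple mutant was lower than wild type by a log2 fold change of −0.34 ± 0.11 (SE; edgeR adjusted p = 0.0468), and by −0.20 (edgeR adjusted p = 0.143) without wild-type replicate 2. It was −0.39 (edgeR adjusted p = 0.0253) without wild-type replicate 3 and −0.32 (edgeR adjusted p = 0.0455) with the exon-length offset. This call held in only 6 of 25 alternative settings, and in 4 of the 16 that leave out 1 library. Relative to the irld mutant, the triple mutant was at −0.28 ± 0.11 (edgeR adjusted p = 0.0989). It passed without wild-type replicate 2 (edgeR adjusted p = 0.0240) and with only the groups compared in the fit (edgeR adjusted p = 0.0197).

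Group means of transcripts of the early embryo, which an arrested larva may still carry from the egg, ran in the same order as those of lin-28, but libraries within a group did not. The summed level of 12 early embryo markers averaged 66.4 ± 15.7 CPM in the triple mutant, 79.5 ± 34.2 in the daf-2 mutant, 92.9 ± 30.4 in the irld mutant and 117 ± 19.2 in wild type (SD, n = 4 each), with ranges of 54.4 to 88.7, 38.0 to 108, 70.3 to 138 and 92.4 to 137 CPM. Among the 11 of them tested, mex-5 and spn-4 were lower in the triple mutant than in wild type, with log2 fold changes of −1.52 ± 0.49 and −1.38 ± 0.42 (edgeR adjusted p = 0.0430 and 0.0328), and perm-2 had 0 counts in the irld mutant. Neither was called without wild-type replicate 3 (−1.59 and −1.29, edgeR adjusted p = 0.0582 and 0.0745), nor was any other of the 11. Values relative to wild type in the triple mutant were not all negative: egg-2 was at 0.89, egg-1 at 0.45, chs-1 at 0.45 and cbd-1 at 0.04. The markers' part in the lin-28 result was not tested. Within groups, daf-2 replicate 3 had the highest lin-28 level of its group (184 CPM) and the lowest marker sum (38.0 CPM). The irld replicate 3 had the lowest lin-28 level of its group (172 CPM) and the highest marker sum (138 CPM). Wild-type replicate 2, highest for lin-28, had the lowest marker sum of the wild-type libraries, 92.4 CPM. In the triple mutant the 2 lowest values fell together: LRB458 replicate 4 had the lowest lin-28 level (152 CPM) and the lowest marker sum (54.4 CPM).

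The other 6 timing genes were not called in any comparison. For lin-14 (X:11465560-11485871, plus strand), a lin-4 target whose product specifies L1 fates, levels were 346 and 339 CPM in LRB457 and 319 and 322 CPM in LRB458 libraries of the triple mutant, 365, 359, 334 and 325 CPM in the daf-2 mutant, 380, 402, 392 and 422 CPM in the irld mutant and 373, 321, 206 and 399 CPM in wild type. Both groups with daf-2(e1370) lay wholly below the irld mutant, and wild type spanned all of them. The log2 fold change against the irld mutant was −0.27 ± 0.15 (SE) in the triple mutant (edgeR adjusted p = 0.240) and −0.21 ± 0.15 in the daf-2 mutant (edgeR adjusted p = 0.403). For the triple mutant it was called when wild-type replicate 3 was left out of the shared estimate of spread (−0.27, edgeR adjusted p = 0.0198). It was also called with only the groups compared in the fit (−0.27, edgeR adjusted p = 0.0131). Against wild type the log2 fold changes of lin-14 were 0.03 ± 0.15 for the triple, 0.09 ± 0.15 for the daf-2 and 0.30 ± 0.15 for the irld mutant, and those of the triple and daf-2 mutants became −0.14 and −0.08 without wild-type replicate 3.

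For lin-41 (I:9334800-9342496, minus strand), the let-7 target, the triple mutant had 218, 200, 215 and 203 CPM and the daf-2 mutant 254, 261, 224 and 253 CPM, so that all triple libraries were below all daf-2 libraries. The irld mutant had 188, 248, 231 and 242 CPM and wild type 222, 180, 94.5 and 226 CPM. The difference between the triple and daf-2 mutants, −0.25 ± 0.19 on the log2 scale (SE), did not pass the test (edgeR adjusted p = 0.839). Against wild type the daf-2 mutant was at 0.46 ± 0.19 (edgeR adjusted p = 0.121), which became 0.24 without wild-type replicate 3, and the triple mutant was at 0.21 (edgeR adjusted p = 0.483), which became −0.001. The gene downstream of it, lin-29 (II:11917642-11935343, minus strand), had 2.08, 3.31, 2.33 and 2.89 CPM in the triple mutant, 3.62, 3.51, 3.82 and 3.37 CPM in the daf-2 mutant, 5.18, 3.67, 3.03 and 3.19 CPM in the irld mutant and 2.38, 1.78, 2.39 and 3.51 CPM in wild type. Again all triple libraries were below all daf-2 libraries (−0.43 ± 0.22, edgeR adjusted p = 0.776), without passing the test. Its log2 fold change was 0.51 ± 0.23 in the daf-2 mutant against wild type (edgeR adjusted p = 0.145) and passed only without wild-type replicate 4 (0.71, edgeR adjusted p = 0.0491). It was 0.48 without wild-type replicate 3.

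For lin-46 (V:12968855-12970730, plus strand) the ranges were 6.50 to 8.01 CPM in the triple mutant, 6.65 to 8.48 CPM in the daf-2 mutant, 5.58 to 11.9 CPM in the irld mutant and 6.86 to 8.74 CPM in wild type. For lep-2 (IV:992283-997644, plus strand) they were 19.4 to 25.3, 19.5 to 26.6, 21.9 to 29.4 and 14.9 to 25.4 CPM in the same groups. For nhr-25 (X:13008493-13013964, plus strand), the Ftz-F1 homologue needed for molting and epidermal development, they were 30.4 to 37.9, 30.0 to 35.7, 25.4 to 39.2 and 15.5 to 32.5 CPM. All groups of these 3 genes overlapped. The 95% interval of the triple mutant's log2 fold change against wild type ran from −0.50 to 0.28 for lin-46, from −0.15 to 0.55 for lep-2 and from 0.002 to 0.78 for nhr-25. None of the 3 passed the test over all genes (edgeR adjusted p = 0.724, 0.431 and 0.150), and changes as large as the far ends of these intervals lie within the error of 4 libraries per group. Without wild-type replicate 3 these log2 fold changes were −0.08 for lin-46, 0.12 for lep-2 and 0.20 for nhr-25, where with all libraries they were −0.11, 0.20 and 0.39. With library sizes of all reads nhr-25 was called in this comparison (0.48, edgeR adjusted p = 0.0372), and lin-46 was called in the triple against the irld mutant without irld replicate 3 (−0.47, edgeR adjusted p = 0.0363).

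**Figure D4:**
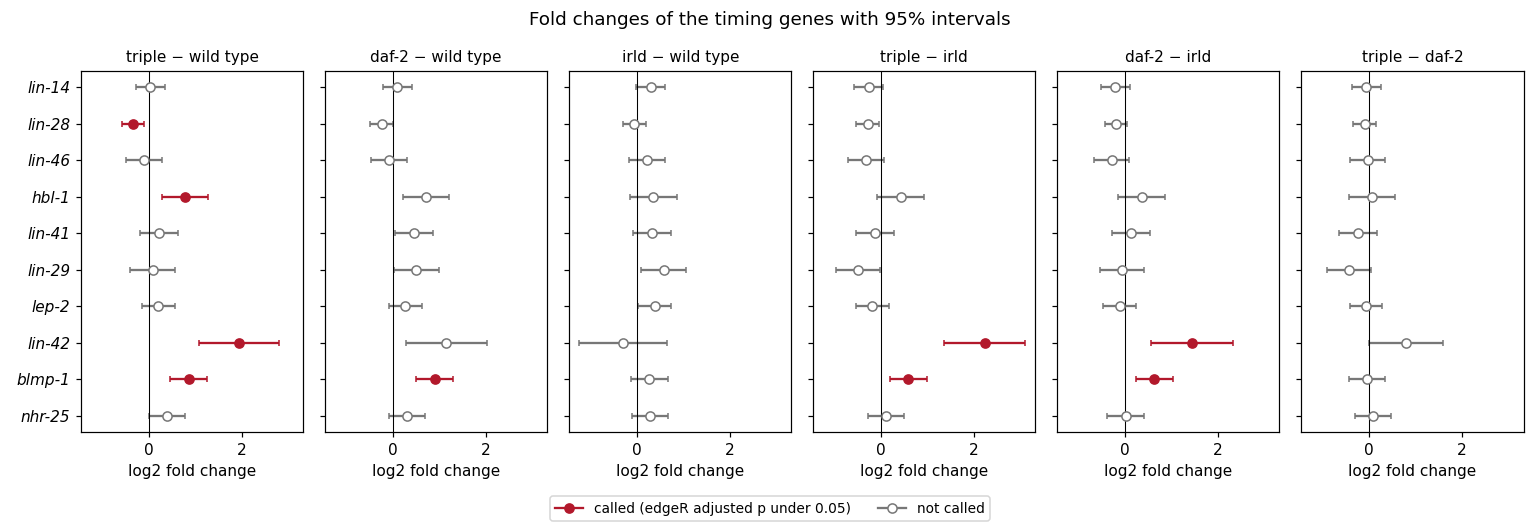
Log2 fold change of each timing gene (horizontal axes) with its 95% interval in 6 comparisons, the first-named group over the second. Filled red points were called at an edgeR adjusted p under 0.05: 4 genes in the triple mutant and 1 in the daf-2 mutant against wild type, and lin-42 and blmp-1 in both comparisons with the irld mutant.

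Counted by library ranges rather than by the test, the groups did not overlap for 4 of the 10 genes in the triple mutant against wild type (22.3% of all tested genes) and for 2 in the daf-2 mutant against wild type (18.3%). Against the irld mutant they did not overlap for 5 in the triple mutant (27% of all tested genes) and for 4 in the daf-2 mutant (23.6%). These counts include lin-42 in both comparisons with the irld mutant and in the triple mutant against wild type. That gene passed the filter on low counts only through the groups with daf-2(e1370). For the triple against the daf-2 mutant there were 2 such genes, lin-41 and lin-29 (6.32% of all tested genes), and for the irld mutant against wild type 0 (2.23%).

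No timing gene passed the test where only the irld alleles differed. In the irld mutant against wild type 0 of 10 were called, where 0.00711% of all tested genes were called, 1 gene in all. At an unadjusted p under 0.05 there were 2 of 10, where 912 of all 14058 tested genes were: lin-29 (log2 fold change 0.58 ± 0.23, SE) and lep-2 (0.39 ± 0.17), and DESeq2's Wald test also called 0. In the triple against the daf-2 mutant 0 of 10 were called (0.0925% of all tested genes), with 0 at an unadjusted p under 0.05 and 0 by DESeq2. The log2 fold change nearest to the threshold was that of lin-42, 0.79 ± 0.37, with a 95% interval from −0.001 to 1.59, and it was 0.12 without the LRB457 libraries. The interaction, which asks whether the irld alleles act differently with daf-2(e1370) than without it, was called for 0 of 10 (0.064% of all tested genes) and for 0 by DESeq2. It was under an unadjusted p of 0.05 for 2 of 10, where it was so for 844 of all 14058 tested genes: lin-29 (−1.01 ± 0.32) and lin-41 (−0.58 ± 0.27). In the authors' deposited table of the interaction all 10 genes had an adjusted p of at least 0.767, and the values for lin-29 and lin-41 were 0.96 and 0.54. Its log2 fold changes had the opposite sign to those given here, except for lin-28, which was near 0 in both (−0.014 there and −0.041 here).

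Over the 10 genes the median log2 fold change relative to wild type was 0.21 for the triple, 0.38 for the daf-2 and 0.29 for the irld mutant, where the medians over all tested genes lay between −0.003 and 0.005. Without wild-type replicate 3 the members' medians were 0.09, 0.21 and 0.13. Comparisons without wild type had medians of −0.15 (triple against irld mutant), −0.03 (daf-2 against irld mutant) and −0.05 (triple against daf-2 mutant). Positive values were counted for 8 of 10 genes in each comparison with wild type, and for 4, 5 and 3 of 10 in the comparisons without it. Leaving out wild-type replicate 3 gave 6 for the triple, 7 for the daf-2 and 9 for the irld mutant against wild type.

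The other genes of the timing pathway were examined in whole lists, of which most members were not called. Their counts against wild type are to be read beside the 20.4% and 15.7% of all tested genes called in the triple mutant and in daf-2 mutants. Among 14 genes of the microRNA machinery, 3 were higher in the triple mutant and 3 in the daf-2 mutant against wild type. They were drsh-1, which encodes the nuclear microRNA-processing enzyme Drosha (log2 fold changes of 0.58 and 0.77), tsn-1, a Tudor nuclease of the silencing complex (0.77 and 0.73), and xrn-2, an exonuclease that degrades mature microRNAs (0.45 and 0.57). In the triple mutant drsh-1 was no longer called without wild-type replicate 3 (0.47, edgeR adjusted p = 0.0619). Without that library tsn-1 (0.61 and 0.54) and xrn-2 (0.37 and 0.46) were still called in both comparisons with wild type, and nhl-2, a TRIM-NHL cofactor of microRNA silencing, was called lower in both (−0.53 and −0.55). Against the irld mutant tsn-1 and xrn-2 were higher in both groups with daf-2(e1370), drsh-1 was higher in the daf-2 mutant, and nhl-2 was lower in both (−0.63 each). Median log2 fold changes of this list relative to wild type were 0.003 in the triple mutant and 0.11 in the daf-2 mutant. The 7 timing microRNA genes, among them lin-4 and let-7, had between 0 and 6 counts per group and were not tested. Polyadenylated RNA libraries hold at most their long precursors, so the mature microRNAs were not measured.

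Among 13 tested genes of a list of other heterochronic regulators 1 was higher in the triple and 1 in the daf-2 mutant against wild type, and it was tim-1, a TIMELESS homologue (log2 fold changes of 0.49 and 0.68), which without wild-type replicate 3 stayed called only in the daf-2 mutant. Its levels were 31.0 ± 3.90 CPM in the triple mutant, 35.2 ± 2.73 in the daf-2 mutant, 22.2 ± 1.99 in the irld mutant and 22.02 ± 6.31 in wild type (SD, n = 4 each). In comparison with the irld mutant sup-26, an RNA-binding protein gene, was lower in both mutants with daf-2(e1370) (−0.50 in the triple and −0.46 in the daf-2 mutant), as was skr-1, a ubiquitin ligase subunit (−0.28 and −0.29). Relative to wild type both genes were called lower only without wild-type replicate 3, sup-26 at −0.32 and −0.30 and skr-1 at −0.24 and −0.28, so that the list then held 0 higher and 2 lower in the triple mutant and 1 higher and 2 lower in daf-2 mutants. Of 7 larval oscillator transcription regulators 2 were higher in the triple mutant and 3 in the daf-2 mutant against wild type: pan-1 (0.35 and 0.37) and myrf-1 (0.52 and 0.58) in both, and nhr-23, the receptor that drives the molting cycle, in the daf-2 mutant (0.78). These calls held without wild-type replicate 3 at smaller values, pan-1 at 0.33 and 0.32, myrf-1 at 0.37 and 0.41 and nhr-23 at 0.60. The gene grh-1, which encodes the Grainyhead homologue, was then also called lower in both (−0.40 and −0.41, edgeR adjusted p = 0.0136 and 0.0139), where with all libraries it was at −0.29 and −0.27 (edgeR adjusted p = 0.156 and 0.200). Against the irld mutant 0 of these 7 were called in either group, and 1, grh-1, was called lower in both without wild-type replicate 3. Of 11 tested seam and epidermal regulators 0 were called in the triple mutant and 1 in the daf-2 mutant against wild type, apr-1 (0.45, and 0.34 without wild-type replicate 3), and bro-1, a partner of the seam cell factor RNT-1, was higher in the triple mutant against the irld mutant (1.09 ± 0.31, edgeR adjusted p = 0.0225). With 1.06 to 2.02 CPM in the triple mutant and at most 0.917 CPM in the irld mutant, bro-1 passed the filter on low counts through the triple mutant, so its call is a description.

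Outputs of the pathway were mostly too scarce to test. Of 6 genes downstream of LIN-41 and LIN-29 only the collagen gene col-7 passed the filter, and it did so through the irld mutant and wild type, where it was higher. Its calls are therefore a description. Its level was lower in the triple mutant (0.772 ± 0.182 CPM) and the daf-2 mutant (0.608 ± 0.200 CPM) than in the irld mutant (1.56 ± 0.53 CPM) and wild type (1.71 ± 0.24 CPM; SD, n = 4 each). Its log2 fold change was −1.15 ± 0.30 in the triple and −1.49 ± 0.32 in the daf-2 mutant against wild type (edgeR adjusted p = 0.0142 and 0.00419), and −1.01 and −1.36 against the irld mutant. Leaving out wild-type replicate 3 gave −1.07 and −1.44 against wild type. The adult collagen col-19 had between 16 and 48 counts per group. Among 4 tested genes linked to LIN-14 or to L1 arrest 1 was called: cki-1, the cyclin-dependent kinase inhibitor of arrested blast cells, was at −0.43 ± 0.11 relative to wild type in both mutants with daf-2(e1370) (edgeR adjusted p = 0.00959 and 0.0114), and at −0.34 and −0.37 without wild-type replicate 3. Against the irld mutant 0 of the 4, and so not cki-1, were called in either group, with or without that library.

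**Figure D5:**
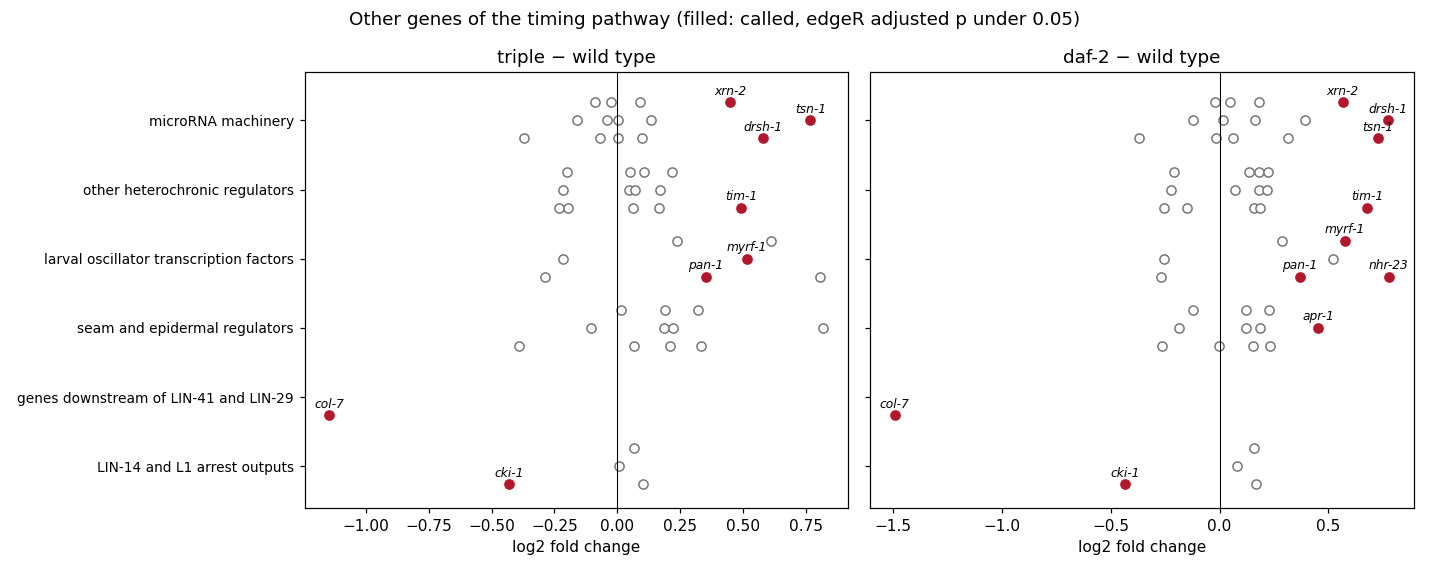
Log2 fold changes (horizontal axes) of the tested genes of 6 lists related to developmental timing, relative to wild type, in the triple mutant (left) and the daf-2 mutant (right); filled and named points were called. Most genes lie within 0.5 of 0, and col-7 is the lowest of all in both panels, at −1.15 and −1.49. It passed the filter on low counts through the irld mutant and wild type.

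For each timing gene the tested genes with the most similar profile over the 16 libraries were sought by Pearson's r of log2 CPM. This is a description in which differences between genotypes and the libraries' shared depth and length dependence also enter. The nearest profile to blmp-1 was that of gpa-12 (r = 0.969), followed by the microRNA-machinery gene tsn-1 (0.968), and both stayed close without wild-type replicate 3 (0.938 and 0.936). For lin-42 they were txdc-12.1 (0.930) and the lipocalin-related lpr-5 (0.920), at 0.931 and 0.929 without that library. For lin-28 they were T05A8.3 (0.973) and cdc-48.3 (0.959), and for lin-14 lin-49 (0.974) and akap-1 (0.973). The nearest to lin-41 were kin-4 (0.974) and dip-2 (0.964), and to hbl-1 gck-4 (0.955) and rga-9 (0.953). For these last 4 genes the values were lower without wild-type replicate 3, between 0.834 and 0.873. For nhr-25 they were Y71F9AL.9 (0.939) and sao-1 (0.931), which fell furthest among the genes named here without that library, to 0.764 and 0.753. The nearest profiles were at 0.942 for lep-2 (unc-80), 0.839 for lin-46 (a pseudogene) and 0.820 for lin-29 (sfxn-5). With group means subtracted, r with lin-42 was 0.676 for txdc-12.1 and 0.736 for lpr-5. In the same way r with blmp-1 was 0.934 for gpa-12 and 0.902 for tsn-1.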

How the data were processed

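Per the submitters' processing notes, the authors mapped reads with Bowtie 1.2.2 to the WS273 genome, counted them per gene with HTSeq 0.11.2 and used edgeR 3.24.4. The deposited files hold unscaled counts per gene and 5 summary entries, which were left out here and made up 40.4% to 42.4% of each library. The authors' deposited interaction table gives log2 values (fold change, mean CPM), p-values and, as a score, the F statistic. Genes reaching 1 CPM in 4 or more libraries entered edgeR 4.0.16 (quasi-likelihood, robust, TMM scaling, limma 3.58.1, R 4.3.3) in 1 fit over 16 libraries and 4 groups. Calls used Benjamini-Hochberg adjustment and a threshold of 0.05. SE was approximated by dividing each log2 fold change by the square root of its F. CPM values are TMM-scaled, and log2 CPM uses a prior count of 2. DESeq2 1.42.0 was an alternative. The fit was tested on simulated data. Gene symbols and lengths came from Ensembl 115, which holds 46857 of 46911 gene identifiers. The timing genes and the lists were chosen with earlier results of these data known. From each list the called genes with the smallest adjusted p, at most 4 per comparison, and for each timing gene the 2 most similar profiles are named. Alternatives covered scaling, filter, tool, samples fitted, replicate block, each triple line, each library left out and, chosen after seeing the data, the exon-length offset. ERCC controls were not used here.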

Additional observations from a re-analysis of the deposited data

Results flagged for a closer look

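In 3 of 40 groups of 4 libraries 1 value lay far from the other 3 (gap over range above Dixon's critical value, which chance alone exceeds in about 1 of 20 groups). For lin-28, wild-type replicate 2 had 257 CPM against 179 to 184 CPM in the other wild-type libraries. For lin-42, wild-type replicate 3 had 1.59 CPM against 0.544 to 0.686 CPM in the others. For lep-2, daf-2 replicate 3 had 19.5 CPM against 25.5 to 26.6 CPM in the other daf-2 libraries.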

How the results depend on the processing

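Of 1680 values of 70 member results under 25 alternatives, 1578 kept their sign and their side of the threshold, 44 lost a call, 19 gained one and 39 changed sign. Members called in the daf-2 mutant against wild type, 1 as reported, were 2 under the replicate block, all-reads scaling, DESeq2's Wald test and the exon-length offset, and 1 to 3 with 1 library left out. In the triple mutant against wild type, 4 as reported, they were 2 without the filter, with only the groups compared and without the LRB458 libraries, 1 without the LRB457 libraries, and 2 to 4 with 1 library left out. In the triple against the irld mutant, 2 as reported, they were 5 with only the groups compared, 1 without either line, and 1 to 4 with 1 library left out. In the daf-2 against the irld mutant, 2 as reported, they were 0 to 2 with 1 library left out. Calls of blmp-1 in both comparisons with wild type held under every alternative fitted. That of lin-42 in the triple against the irld mutant did so too. This gene passed the filter on low counts only through the groups with daf-2(e1370), so its call is a description. Causes of these shifts were not tested.

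Signs changed only for log2 fold changes that were not called, as reported between −0.30 (lin-42 in the irld mutant against wild type) and 0.21 (lin-41 in the triple mutant against wild type). Under the exon-length offset lin-14 was −0.0488 in the daf-2 and −0.0828 in the triple mutant against wild type. Without LRB457, lin-14 was −0.0194 and lin-46 0.0130 in the triple mutant against wild type, and lin-46 was 0.0912 against the daf-2 mutant. Without LRB458, lin-14 was 0.0107 and lep-2 0.0585 against the daf-2 mutant, and the interaction of lin-28 was 0.0388. All-reads scaling gave 0.0237 for lin-46 and 0.00731 for blmp-1 in the triple against the daf-2 mutant and 0.0136 for the interaction of lin-28, and the replicate block gave −0.00223 for hbl-1 in the triple against the daf-2 mutant. With 1 library left out, ranges in the triple against the daf-2 mutant were −0.0818 to 0.0320 for blmp-1, −0.00552 to 0.177 for hbl-1, −0.160 to 0.0333 for lep-2 and −0.0749 to 0.0457 for lin-46. Relative to wild type they were −0.0755 to 0.206 for lin-14 of daf-2 mutants, −0.137 to 0.145 for lin-14, −0.0540 to 0.280 for lin-29 and −0.00132 to 0.338 for lin-41 of triple mutants, and −0.114 to 0.0877 for lin-28 and −0.466 to 0.176 for lin-42 of irld mutants. In the daf-2 against the irld mutant they were −0.170 to 0.126 for lin-29 and −0.0983 to 0.116 for nhr-25, and for the interaction of lin-28 −0.183 to 0.0437.

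Deviations of same-numbered libraries from their group means had r from −0.46 to 0.31 (24 pairs, median 0.03, 9 above 0.1). For libraries with other numbers r ran from −0.45 to 0.52 (72 pairs, median −0.01, 18 above 0.1). These values do not settle whether the numbers pair the samples, and the main fit did not pair them. The replicate block also lost lin-28 in the triple mutant against wild type (−0.28, edgeR adjusted p = 0.0981). Genes called in the daf-2 mutant against wild type were 1208 with only the groups compared, against 2209. In the triple mutant against wild type they were 1390 without LRB457 and 1552 without LRB458, against 2871, and against the irld mutant 1379 and 1496, against 2593. DESeq2 called 27 in the triple against the daf-2 mutant, against 13, 22 for the interaction, against 9, and 2 in the irld mutant against wild type, against 1, where the replicate block gave 2 and the groups compared 0. With all-reads scaling 62.8% of called genes were higher in the triple mutant against wild type, against 49.2%, and 65.8% against 53.1% in the triple against the irld mutant.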
